A study of Mus musculus with 10 samples.

Results

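Inhibitor of DNA binding (Id) genes and the E-protein genes whose products they bind were compared between TdTomato+ and TdTomato- cells of the embryonic mouse brain. The 7 genes were all the members named for these families, namely *Id1*, *Id2*, *Id3* and *Id4*, and the E-protein genes *Tcf3* (E2A), *Tcf4* (E2-2) and *Tcf12* (HEB). All 7 were present among the 14300 genes of the count table. They lie on 7 chromosomes, *Id1* on chromosome 2, *Id2* on 12, *Id3* on 4, *Id4* on 13, *Tcf3* on 10, *Tcf4* on 18 and *Tcf12* on 9.

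E-proteins are broadly expressed basic helix-loop-helix (bHLH) transcription factors, which pair with tissue-restricted bHLH factors such as Neurog2 and bind the E-box, a short DNA motif. Id proteins have the helix-loop-helix that allows pairing but lack the basic stretch that contacts DNA, and an E-protein held by an Id protein cannot bind the E-box. In the developing cortex Id proteins are known for keeping progenitors undifferentiated, and *Id1*, *Id2*, *Id3* and *Id4* are classical targets of bone morphogenetic protein (BMP) signaling, which the secreted antagonist gremlin 1 (Grem1) restrains.

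The embryos were of the *Grem1creERT; Rosa26LSLTdtomato* line on the C57BL/6J strain, in which *Grem1* enhancer and promoter sequences drive a tamoxifen-inducible Cre, and a stop cassette in front of TdTomato is removed where Cre has acted. Pregnant mice received tamoxifen in mid-gestation and the embryos were collected 24 h later. Both populations were thus tamoxifen-treated and carried both alleles, and differed by the red fluorescence on which live cells were sorted. TdTomato+ cells include the progeny of cells in which Cre was active, and TdTomato- cells are a mixture of all other live cells, including any *Grem1*-expressing cells that did not recombine. There were 10 libraries, 5 of each population, and each of the mice numbered 2 to 6 gave both. No source states whether a mouse number stands for 1 embryo or for pooled embryos. The sample descriptions name the brain as the tissue, whereas the methods of the study name the dorsal telencephalon with the meninges removed.

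The defining feature shared by the members is encoded in a short stretch of each gene. The stretch of 45 codons in which the 4 Id proteins were most alike was located from the GENCODE transcripts of GRCm38 and lies within a single exon in each gene. It is coding sequence and is shown because Id proteins and E-proteins pair through this helix-loop-helix segment. It is chr2:152736512-152736646 on the plus strand for *Id1*, chr12:25095774-25095908 on the minus strand for *Id2*, chr4:136143996-136144130 on the plus strand for *Id3* and chr13:48261687-48261821 on the plus strand for *Id4*. Capitals mark the 76 of 135 bases (56.3%) that are the same in all 4 genes.
*Id1*: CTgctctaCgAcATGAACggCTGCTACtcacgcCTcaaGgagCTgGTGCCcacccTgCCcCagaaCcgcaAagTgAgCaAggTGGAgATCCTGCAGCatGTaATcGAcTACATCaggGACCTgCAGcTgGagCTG
*Id2*: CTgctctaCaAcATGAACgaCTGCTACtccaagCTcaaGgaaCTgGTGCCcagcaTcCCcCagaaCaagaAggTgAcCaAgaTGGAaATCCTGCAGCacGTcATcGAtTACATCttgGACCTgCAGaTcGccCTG
*Id3*: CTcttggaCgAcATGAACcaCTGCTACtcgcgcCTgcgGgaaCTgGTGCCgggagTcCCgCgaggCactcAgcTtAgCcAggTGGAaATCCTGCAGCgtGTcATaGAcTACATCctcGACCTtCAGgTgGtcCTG
*Id4*: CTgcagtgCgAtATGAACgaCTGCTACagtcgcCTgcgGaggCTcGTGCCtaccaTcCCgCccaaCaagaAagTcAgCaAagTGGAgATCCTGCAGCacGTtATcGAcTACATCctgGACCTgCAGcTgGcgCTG

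Over this stretch *Id1* and *Id2* had the highest identity of the 6 pairs, 80.7% of bases, followed by *Id1* and *Id4* with 77.8% and *Id2* and *Id4* with 74.1%. The 3 pairs with *Id3* had 69.6% to 70.4%.

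The corresponding stretch of 60 codons, with the end of the basic segment and the helix-loop-helix, was located in the same way in *Tcf3* and *Tcf12*. It is split over 2 exons in both genes, which span chr10:80410261-80412992 on the minus strand for *Tcf3* and chr9:71849912-71856470 on the minus strand for *Tcf12*. Capitals mark the 140 of 180 bases (77.8%) that are the same in both.
*Tcf3*: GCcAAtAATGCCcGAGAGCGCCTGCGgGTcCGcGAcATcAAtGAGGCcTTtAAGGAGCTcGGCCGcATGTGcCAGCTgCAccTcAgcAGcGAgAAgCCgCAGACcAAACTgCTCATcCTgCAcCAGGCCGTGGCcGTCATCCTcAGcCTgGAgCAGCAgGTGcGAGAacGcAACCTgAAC
*Tcf12*: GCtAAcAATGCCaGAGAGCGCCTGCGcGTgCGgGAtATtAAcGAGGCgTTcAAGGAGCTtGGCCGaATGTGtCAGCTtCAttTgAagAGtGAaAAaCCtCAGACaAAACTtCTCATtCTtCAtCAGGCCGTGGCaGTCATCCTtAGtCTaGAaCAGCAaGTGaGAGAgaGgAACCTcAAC

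Promoter windows from 250 bases before to 50 bases after the transcription start were taken from RefSeq for GRCm38.p6, which matched 5 of the 7 members. The windows of *Id2*, *Id3* and *Id4* are printed because *Id2* rose in TdTomato+ cells whereas *Id3* and *Id4* fell. Capitals mark the E-box, CANNTG, and GGCGCC, a motif known from BMP-responsive promoters, searched on both strands. The *Id2* window is chr12:25096043-25096342 on the minus strand, the *Id3* window chr4:136143572-136143871 on the plus strand and the *Id4* window chr13:48260866-48261165 on the plus strand.
*Id2*: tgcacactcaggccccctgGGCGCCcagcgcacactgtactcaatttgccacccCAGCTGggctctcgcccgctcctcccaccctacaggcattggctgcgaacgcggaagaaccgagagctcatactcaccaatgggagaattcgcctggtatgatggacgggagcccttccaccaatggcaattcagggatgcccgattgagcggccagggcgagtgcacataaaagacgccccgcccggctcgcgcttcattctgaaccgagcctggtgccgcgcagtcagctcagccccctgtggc
*Id3*: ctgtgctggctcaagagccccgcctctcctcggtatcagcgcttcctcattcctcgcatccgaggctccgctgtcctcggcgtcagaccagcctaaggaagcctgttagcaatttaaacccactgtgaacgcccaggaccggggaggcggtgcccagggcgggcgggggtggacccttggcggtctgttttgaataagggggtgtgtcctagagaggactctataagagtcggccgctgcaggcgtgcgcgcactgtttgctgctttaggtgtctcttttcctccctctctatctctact
*Id4*: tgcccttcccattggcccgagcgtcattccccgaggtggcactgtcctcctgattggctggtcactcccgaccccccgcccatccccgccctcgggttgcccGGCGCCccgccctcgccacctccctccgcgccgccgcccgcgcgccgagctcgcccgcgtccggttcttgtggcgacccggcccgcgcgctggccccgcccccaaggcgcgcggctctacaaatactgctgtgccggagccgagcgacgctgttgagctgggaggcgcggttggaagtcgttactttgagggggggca

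The *Id2* window held 1 E-box, of the CAGCTG form, and 1 GGCGCC, which did not overlap. The *Id4* window held 1 GGCGCC and no E-box, and the *Id3* window held neither. The windows of *Tcf3* and *Tcf12*, genes that fell, are not printed. The *Tcf3* window held 1 E-box and the 3 *Tcf12* windows held 1, 2 and 1, and none of them held GGCGCC. Of 32851 mouse promoter windows of the same length, 72.3% held at least 1 CANNTG, 16.3% held CAGCTG and 11.9% held GGCGCC. The matches are letters in these windows and are not shown to be bound.

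Total counts were 23429034 to 27286180 per library, so counting error differed little between libraries, and the floor of 3 counts corresponded to 0.104 to 0.136 CPM (counts scaled by library size). *Grem1*, which drives the reporter, was at 63.3±3.10 CPM in the TdTomato+ population and at 6.11±0.731 CPM in the other (mean±s.d., n=5 libraries, as in all values that follow), which is in the direction of the sort. Genes were tested with edgeR's quasi-likelihood test with the mouse as a block, and adjusted p-values are Benjamini-Hochberg values over all 14300 genes. The populations differed widely. At a threshold of 0.05 on the adjusted p, 77.3% of all genes were called, 37.9% as higher and 39.4% as lower in the TdTomato+ population. A further threshold of 2 on the absolute log2 change left 12.9%, of which 3.2% were higher and 9.74% lower (all shares are of the 14300 genes). The median log2 fold change of all genes was −0.006. All 7 members passed the adjusted p, 1 of them higher and 6 lower in TdTomato+ cells, and 4 passed both thresholds, all of them lower. Since most genes passed the adjusted p, that count says little about the members. The 4 past both, all lower, stand beside 9.74% of all genes, and nothing is read from this count, since *Id3* is in the table only by way of TdTomato- libraries and *Id1*, *Id3* and *Id4* were named by the study from these same libraries. In bulk libraries fewer cells of a type and less RNA per cell cannot be told apart, and no source states that the mice were from separate litters, so the p-values measure the spread between these mice.

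*Id2* was the only member that was higher in TdTomato+ cells. It had 109.5, 94.8, 91.6, 107 and 145 CPM in the TdTomato- libraries of mice 2 to 6, and 339, 282, 267, 359 and 375 CPM in the TdTomato+ libraries in the same order. Every TdTomato+ library was above every TdTomato- library, which was so for 29.1% of all genes, while the reverse held for 32.4% and either for 61.6%, so that a lack of overlap is common in this comparison. Mouse 6 was the highest in both populations and mouse 4 the lowest in both. The mean rose from 109.5±21.2 to 324±47.5 CPM, or 2.98-fold (log2 change 1.57, standard error 0.05, adjusted p=1.53e-08), and the difference within mice was 1.37 to 1.75 on the log2 scale. This change was below the log2 threshold of 2, so *Id2* was not counted among the genes past both.

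*Id4*, which is known from neural progenitors of the ventricular zone, fell in TdTomato+ cells in all 5 mice. The TdTomato- libraries of mice 2 to 6 had 145, 189, 193, 149.6 and 114 CPM and the TdTomato+ libraries 11.6, 15.7, 12.8, 18.1 and 12.9 CPM. The populations were far apart, and the mouse with the highest TdTomato- level, mouse 4, was not the one with the highest TdTomato+ level, mouse 5. *Id4* fell in TdTomato+ cells (log2 change −3.46, standard error 0.12, adjusted p=1.78e-08), from 158±33.0 to 14.2±2.64 CPM, or 11-fold. Within TdTomato- cells mouse 6 combined the lowest *Id4* with the highest *Id2* level, and mouse 4 the highest *Id4* with the lowest *Id2* level. *Id4* is the only member with exonic sequence that another gene shares, 4.44% of its exonic length, with transcripts on the opposite strand. Whether the counts used strand is not stated, and the antisense gene in the table, *A330033J07Rik*, went from 1.47±0.220 to 0.142±0.126 CPM.

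*Id1* and *Id3* were scarce in both populations. *Id1* had 10.3, 5.53, 5.61, 8.56 and 8.08 CPM in the TdTomato- libraries of mice 2 to 6, and 1.09, 0.694, 0.618, 1.00 and 1.13 CPM in the TdTomato+ libraries, which rest on 14 to 25 counts each. *Id3* had 10.8, 5.60, 4.41, 9.71 and 9.58 CPM in TdTomato- cells, and 0.408, 0.217, 0.574, 0.217 and 0.542 CPM in TdTomato+ cells, which rest on 5 to 13 counts. Both genes were lowest in mice 3 and 4 among the TdTomato- libraries, and neither had overlapping populations.

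*Id1* fell in TdTomato+ cells (log2 change −3.06, standard error 0.13, adjusted p=5.66e-08). For *Id3* the fitted log2 change was −4.31 (standard error 0.28), which is a description, since its place in the table rested on the population in which it was higher. The standard error of *Id3* was the largest among the members, and its difference within mice ranged from −5.04 in mouse 5 to −2.78 in mouse 4. Every gene of the table was above 0.5 CPM in at least 5 of the 10 libraries. *Id3* met that level in all 5 TdTomato- libraries and in 2 TdTomato+ libraries. The direction of *Id1*, *Id3* and *Id4*, which the study named from these libraries, is not independent evidence.

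All 3 E-protein genes were lower in TdTomato+ cells, each by a different amount. *Tcf3*, which encodes the E12 and E47 proteins, had 300.2, 318, 293, 329.7 and 331 CPM in the TdTomato- libraries of mice 2 to 6. It had 91.4, 80.1, 82.6, 85.5 and 104 CPM in the TdTomato+ libraries. Libraries within a population were close together and the populations did not overlap. *Tcf3* fell in TdTomato+ cells (log2 change −1.83, standard error 0.06, adjusted p=7.46e-09), from 314±17.0 to 88.7±9.46 CPM, or 3.56-fold.

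*Tcf12* changed most among the E-protein genes. It had 297, 318, 297, 312 and 297 CPM in the TdTomato- libraries and 40.7, 57.0, 58.4, 53.1 and 58.1 CPM in the TdTomato+ libraries. The TdTomato- levels had the smallest spread of any member relative to their mean, and in TdTomato+ cells mouse 2 lay below the other 4 mice. *Tcf12* fell in TdTomato+ cells (log2 change −2.52, standard error 0.08, adjusted p=7.43e-09), from 304±10.3 to 53.5±7.45 CPM, and was the only E-protein gene past both thresholds.

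*Tcf4* changed least. It had 1111, 990.0, 802, 1061 and 1062 CPM in the TdTomato- libraries and 617, 456, 449, 651 and 710.3 CPM in the TdTomato+ libraries. The populations did not overlap, and the gap between the highest TdTomato+ library, mouse 6, and the lowest TdTomato- library, mouse 4, was small beside the spread within each population. *Tcf4* fell in TdTomato+ cells (log2 change −0.82, standard error 0.07, adjusted p=5.22e-06), from 1005±122 to 577±118 CPM, or 1.76-fold, and within mice by 0.58 to 1.12.

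**Figure D1:**
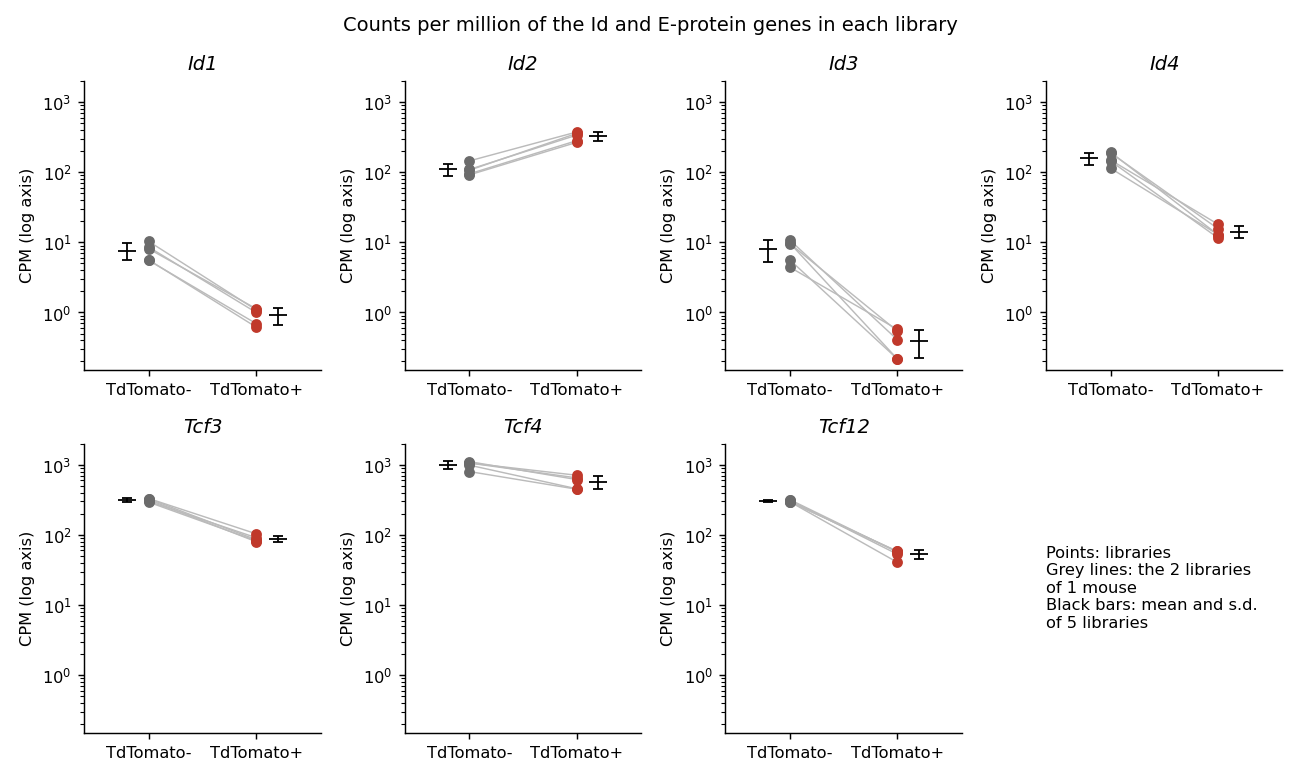
CPM of each member on a log axis in the TdTomato- (grey) and TdTomato+ (red) library of each of 5 mice, with lines joining the libraries of a mouse and black bars for the mean and s.d. *Id2* rises in all 5 mice, the other 6 members fall in all 5, and the populations overlap for no member, as for 61.6% of all genes.

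The changes of the members were compared with each other within mice, as the difference between the changes in log2 CPM of 2 genes in the same mouse, with an exact two-sided sign-flip permutation test over the 5 mice. The smallest p this test can give with 5 mice is 0.062. Of the 21 pairs of members, 19 reached it, with the same order in all 5 mice and a Benjamini-Hochberg adjusted p of 0.0691 over the 21 pairs, so no pair could pass 0.05. The 2 other pairs were *Id1* with *Id3* (exact p=0.13) and *Id3* with *Id4* (exact p=0.3125). All pairs with *Id3*, including those among the 19, are descriptions, since its place in the table rested on TdTomato- libraries. *Tcf12* fell further than *Tcf3* by 0.69±0.27 on the log2 scale in 5 of 5 mice, and *Tcf3* fell further than *Tcf4* by 1.01±0.16 in 5 of 5. *Id2* and *Tcf4*, the members with the smallest changes, differed by 2.39±0.27 in 5 of 5 mice.

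The balance of Id to E-protein transcripts was then described within each library. Counts were divided by the exonic length of each gene (the union of its annotated exons), so that levels of different genes could be added, and are given as CPM per kilobase. The summed Id level was 97.4, 95.9, 95.0, 95.5 and 101 CPM per kilobase in the TdTomato- libraries of mice 2 to 6, and 143, 121, 114, 153 and 159 in the TdTomato+ libraries. On this scale it was higher, not lower, in TdTomato+ cells, with a ratio of 1.2 to 1.6 within mice and means of 97.0±2.60 and 138±19.7 CPM per kilobase, whereas 3 of the 4 Id genes were each lower. The rise in all 5 mice depends on the division by length. The summed CPM of the Id genes was 275, 295, 295, 275 and 277 in TdTomato- and 352, 299, 281, 378 and 390.0 in TdTomato+ libraries, lower in TdTomato+ cells in mouse 4 and nearly equal in mouse 3.

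The summed E-protein level was 134, 135, 121, 140.5 and 139.8 CPM per kilobase in the TdTomato- libraries and 47.8, 40.1, 40.6, 48.4 and 55.4 in the TdTomato+ libraries. It was lower in TdTomato+ cells in all 5 mice, at 0.297 to 0.396 of the TdTomato- level.

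The ratio of summed Id to summed E-protein level was 0.727, 0.708, 0.785, 0.680 and 0.725 in the TdTomato- libraries and 3.00, 3.00, 2.80, 3.16 and 2.86 in the TdTomato+ libraries. E-protein transcripts were in excess of Id transcripts in every TdTomato- library, and Id transcripts were in excess in every TdTomato+ library. On the log2 scale the ratio was −0.47±0.08 in TdTomato- and 1.57±0.07 in TdTomato+ cells, and the difference within mice was 2.03±0.14, with a range of 1.84 to 2.22. No p is given for this ratio, since it is a score over members chosen with results known.

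The level of the ratio depends on the length that is used, and the difference between populations much less so. With the longest annotated transcript of each gene in place of the union of its exons, the ratio was 0.379 to 0.437 in TdTomato- libraries and 1.54 to 1.66 in TdTomato+ libraries, and the difference was 1.99±0.13 on the log2 scale. The 2 lengths differ most for *Tcf4*, which has 62 annotated transcripts and an exonic union of 27382 bases against 8577 bases for its longest transcript, and for *Tcf12*, with 15529 against 6299 bases. Without division by length the ratio was −1.07 on the log2 scale in TdTomato+ cells, so that Id counts were then fewer than E-protein counts in both populations, and the difference was 1.44.

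**Figure D2:**
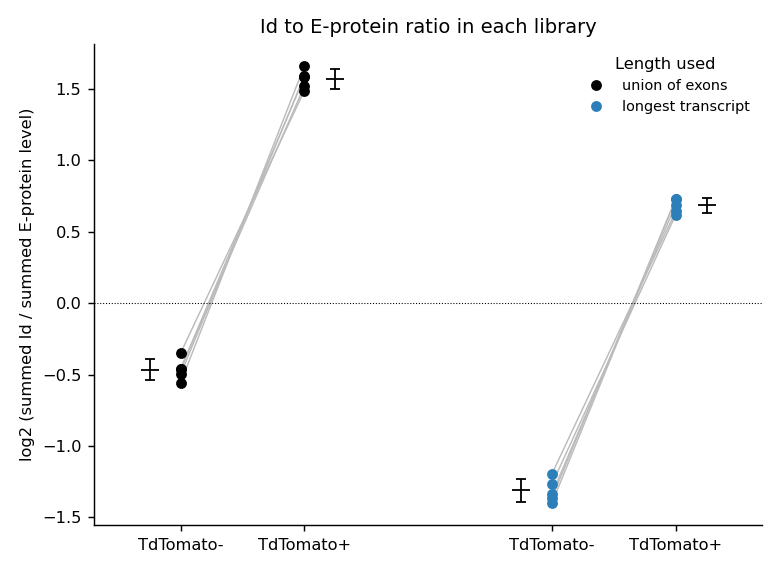
Log2 ratio of summed Id to summed E-protein level in each library, with levels per kilobase of the union of exons (black) or of the longest transcript (blue), lines joining the libraries of a mouse, and bars for the mean and s.d. All 5 TdTomato- libraries lie below 0 and all 5 TdTomato+ libraries above 0 with either length.

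The composition of the Id pool differed between populations. *Id2* made up 39.6% to 58.6% of the summed Id level in TdTomato- libraries and *Id4* 29.2% to 52.8%, whereas in TdTomato+ libraries *Id2* made up 96.0% to 97.1% and *Id4* 2.10% to 3.37%. *Id1* made up 4.97% to 9.14% in TdTomato- libraries and 0.468% to 0.656% in TdTomato+ libraries, and *Id3* 2.59% to 6.17% and 0.0795% to 0.282%. Without *Id2* in the sum, an alternative chosen after the values had been seen, the log2 ratio was −1.37 in TdTomato- and −3.31 in TdTomato+ cells, and the difference between populations changed sign, to −1.93. The higher ratio in TdTomato+ cells was thus present only with *Id2* in the sum.

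*Tcf4* made up a larger part of the E-protein pool in TdTomato+ cells. Its share of the summed E-protein level was 27.3±2.19% in TdTomato- and 45±3.85% in TdTomato+ libraries, while the share of *Tcf3* went from 58.1±1.65% to 47.5±2.60% and that of *Tcf12* from 14.6±0.837% to 7.54±1.63%. In each of the 5 mice the *Tcf4* share was higher and the shares of *Tcf3* and *Tcf12* were lower in TdTomato+ cells. With the longest transcript the *Tcf4* share was 43.0±2.75% and 63.2±3.92%.

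**Figure D3:**
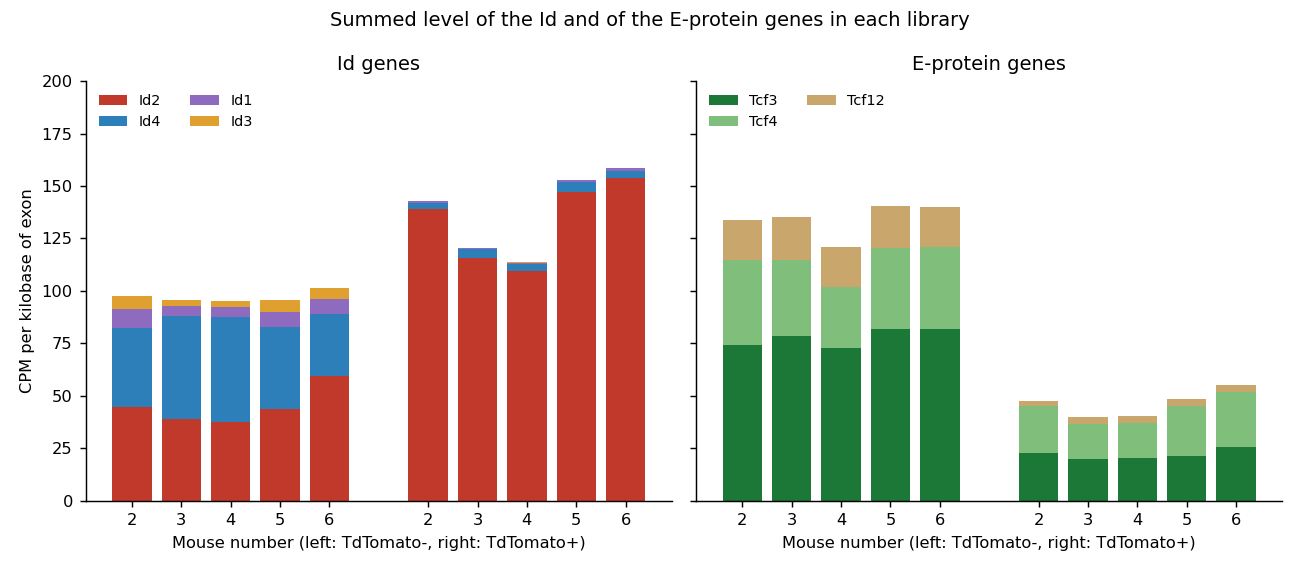
Stacked bars of the level of each Id gene (left panel) and E-protein gene (right panel) in CPM per kilobase of exon, with 1 bar for each library and mice 2 to 6 in each population. The Id bars of the TdTomato+ libraries are almost wholly *Id2* and reach 114 to 159, and the E-protein bars reach 121 to 140.5 in TdTomato- libraries and 40.1 to 55.4 in TdTomato+ libraries.

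Within each population the members were ordered by their level per kilobase, and neighbours were compared with the exact two-sided sign-flip permutation test over 5 libraries, 12 comparisons in all, for which no exact p could be below 0.062 or, adjusted, 0.0938. In TdTomato- cells *Tcf3* was first with 77.8±4.21 CPM per kilobase. *Id2* (44.9±8.70), *Id4* (41.1±8.58) and *Tcf4* (36.7±4.44) followed and did not differ beyond their spread as neighbours (exact p=0.6875 and 0.5625). *Tcf12* (19.6±0.664), *Id1* (6.57±1.77) and *Id3* (4.47±1.57) came next, each below the one before in 5 of 5 libraries.

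In TdTomato+ cells *Id2* was first with 133±19.5 CPM per kilobase, above *Tcf3* (22.0±2.34) in 5 of 5 libraries by 2.59±0.14 on the log2 scale. *Tcf3* and *Tcf4* (21.1±4.32) did not differ beyond their spread (exact p=0.4375), nor did *Id4* (3.70±0.687) and *Tcf12* (3.44±0.480) (exact p=0.5). *Id1* (0.781±0.202) and *Id3* (0.219±0.0955) were last. With the length of the longest transcript *Tcf4* was first in TdTomato- cells, ahead of *Tcf3* in 4 of 5 libraries, *Tcf12* was above *Id4* in 4 of 5, and *Id1* and *Id3* no longer differed beyond their spread (log2 0.11±0.23, *Id1* above in 3 of 5 libraries, exact p=0.4375). *Id2* remained first and *Id1* and *Id3* last in TdTomato+ cells. The 2 pairs of neighbours that did not differ in TdTomato+ cells lay apart with that length, *Tcf4* being above *Tcf3* by 1.14±0.20 and *Tcf12* above *Id4* by 1.21±0.27 on the log2 scale, each in 5 of 5 libraries, so their order depends on the length used.

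The tissue-restricted bHLH factors that pair with E-proteins went in different directions. Of 28 such genes, 16 were in the table (listed genes outside it, here and in the other lists, were not analysed here), of which 2 were higher, 12 were lower and 2 did not pass an adjusted p of 0.05 in TdTomato+ cells, and the median log2 fold change was −2.18, against −0.006 for all genes. For 7 of the 16, *Olig2* and *Neurog1* among them, fewer than 5 TdTomato+ libraries were above 0.5 CPM, so their place in the table needed TdTomato- libraries, and the count and the median of the list support nothing. *Neurog2*, which directs progenitors to the glutamatergic fate, fell in TdTomato+ cells (log2 change −4.00, standard error 0.07, adjusted p=1.26e-09). *Olig2*, a factor of the oligodendrocyte lineage, had 804 to 1053 counts per TdTomato- library and 7 to 19 per TdTomato+ library, and the proneural gene *Neurog1* 181 to 577 and 6 to 12 counts. These ranges are given as descriptions.

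*Neurod2* and *Neurod6*, which are expressed in differentiated glutamatergic neurons, were the 2 that rose. *Neurod6* went from 451±78.6 to 1345±75.7 CPM and *Neurod2* from 434±65.4 to 1256±45.1 CPM, which are log2 changes of 1.59 (standard error 0.08, adjusted p=1.6e-07) and 1.55 (0.07, adjusted p=6.4e-08), each in 5 of 5 mice. These changes were close in size to that of *Id2*. *Bhlhe22* (0.23, standard error 0.20) and *Atoh8* (0.14, standard error 0.22) did not pass the test.

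Summed per kilobase, the tissue-restricted factors had 618±89.8 CPM per kilobase in TdTomato- and 1095±58.5 in TdTomato+ cells, higher in 5 of 5 mice. *Neurod6* (626±35.2) and *Neurod2* (400±14.4) made up most of the TdTomato+ sum. The ratio of these factors to the E-proteins was 3.55 to 5.10 in TdTomato- libraries and 21.2 to 27 in TdTomato+ libraries, and 1.72 to 2.54 and 9.24 to 12.2 with the longest transcripts. The higher ratio in TdTomato+ cells rested on these 2 genes. Without *Neurod2* and *Neurod6*, an alternative chosen after the values had been seen, the ratio of the other 14 was 1.57 to 2.15 in TdTomato- libraries and 1.20 to 1.8 in TdTomato+ libraries, and the difference between populations changed sign, from 2.37±0.21 to −0.45±0.29 on the log2 scale, with 5 of 5 mice lower in TdTomato+ cells. These 14 include the 7 genes whose place in the table needed TdTomato- libraries, so the lower ratio is a description.

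Hes and Hey genes encode bHLH repressors, most of which act downstream of Notch. Of 9 such genes, 5 were in the table and all 5 fell, with a median log2 fold change of −3.61. Of the 5, 3 (*Hes1*, *Hes5* and *Hey2*) were in the table only by way of TdTomato- libraries, so the count and the median of the list support nothing. *Hes5* and *Hes1*, the main Notch effectors of radial glia, had 908 to 1301 and 370 to 637 counts per TdTomato- library, against 7 to 34 and 10 to 24 per TdTomato+ library. *Hes6*, which opposes Hes1 and is expressed in differentiating neurons, fell by 1.27 (standard error 0.05, adjusted p=2.49e-08).

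Of 10 genes for cofactors of E-proteins, all in the table, 2 were higher, 6 lower and 2 did not pass, with a median of −0.30 and none past both thresholds. The 8 called stand beside 77.3% of all genes, and the count past both beside 12.9%, so the list does not stand apart by these counts. *Lmo3*, which encodes a LIM-only adaptor, rose from 91.1±9.77 to 277±57.3 CPM (log2 1.59, standard error 0.08, adjusted p=1.81e-07), and the corepressor gene *Runx1t1* rose by 0.67 (standard error 0.07, adjusted p=1.82e-05). Its paralogs *Cbfa2t2* and *Cbfa2t3* fell by 0.82 and 0.87. The adaptor gene *Ldb1* had 426±14.2 and 427±19.1 CPM and did not pass the test (log2 0.003, standard error 0.04).

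Of 4 genes that control the stability of Id proteins, all passed as lower, beside 39.4% of all genes, with a median of −0.99, and 1 passed both thresholds, beside 9.74% of all genes. They were *Cdc20*, an activator of the anaphase-promoting complex (log2 change −4.75, standard error 0.13, adjusted p=4.43e-09), *Usp1*, the deubiquitinase that stabilizes Id proteins (log2 change −1.74, standard error 0.05, adjusted p=8.39e-09), and 2 genes with small changes. *Fzr1*, which encodes Cdh1, the other activator of that complex, fell by 0.22 (standard error 0.04, adjusted p=0.0005), and *Smurf2* by 0.24. Of the pocket protein genes, whose products Id2 is known to bind, *Rbl1* (p107) fell by 3.16 (standard error 0.09, adjusted p=4.53e-09) and *Rb1* by 0.16 (standard error 0.05, adjusted p=0.0101), and *Rbl2* (0.11, standard error 0.05, adjusted p=0.0518) did not pass.

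Receptors and Smads of the BMP pathway, through which Id genes are induced, did not stand apart from all genes by their counts. Of the 11 genes, 9 were in the table, of which 4 were higher and 4 were lower, beside 37.9% and 39.4% of all genes, and 1 did not pass, with a median log2 fold change of −0.08 and none past both thresholds. *Bmpr1a*, a type I receptor, fell by 1.22 (standard error 0.05, adjusted p=2.92e-08) and *Acvr2b* by 0.75 (standard error 0.05, adjusted p=1.01e-06), while the type II receptor gene *Acvr2a* rose by 0.86 (standard error 0.09, adjusted p=2.03e-05) and *Smad1* by 0.38 (standard error 0.05, adjusted p=0.000117). Of 7 other BMP targets, 6 were in the table, of which 5 fell and 1, *Atoh8*, did not pass, with a median of −1.36. The inhibitory Smad gene *Smad7* fell by 0.48 (standard error 0.10, adjusted p=0.00154), and its paralog *Smad6* had 76 to 165 counts per TdTomato- library and 10 to 37 per TdTomato+ library. *Msx1*, a homeobox gene, had 12 to 30 counts in TdTomato- libraries and 1 to 6 counts in TdTomato+ libraries. No TdTomato+ library was above 0.5 CPM for *Msx1*, which was therefore in the table only by way of the TdTomato- libraries and had to be lower in TdTomato+ cells, and *Smad6* also needed TdTomato- libraries. The count and the median of this list thus support nothing.

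**Figure D4:**
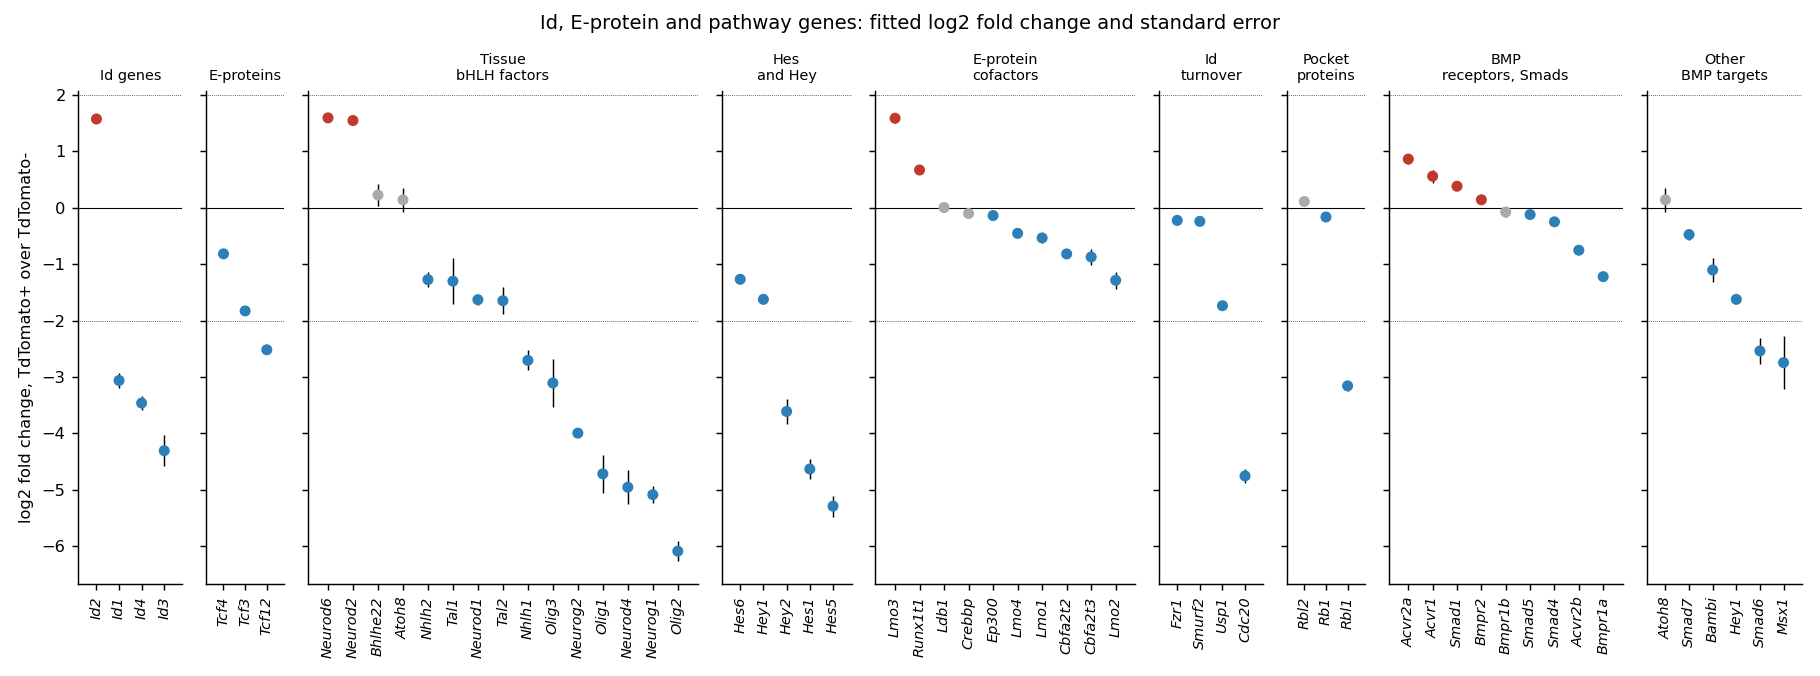
Fitted log2 fold change (TdTomato+ over TdTomato-) with its standard error for the members and the genes of the pathway lists in the table. A gene that is not reported here by name is left out. Red marks higher and blue lower at an adjusted p of 0.05 or less, grey otherwise, with dotted lines at the log2 threshold of 2. *Id2*, *Neurod2*, *Neurod6* and *Lmo3* rise by similar amounts of 1.55 to 1.59, and the other Id genes, the E-proteins and the Hes and Hey genes fall. *Id3*, *Hes1*, *Hes5*, *Hey2* and some other genes shown were in the table only by way of TdTomato- libraries, so their falls are descriptions.

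Markers of the cell types in the sort moved with the members. Their counts stand beside 39.4% of all genes called lower, 9.74% lower past both thresholds and 37.9% higher. All 8 radial glia markers fell (8 past both thresholds, median log2 fold change −3.76), and their summed level was 1562 to 1837 CPM in TdTomato- libraries and 128 to 176 CPM in TdTomato+ libraries, with *Hes5* and *Hopx* in the table only by way of TdTomato- libraries. All 4 markers of intermediate progenitors fell (median −3.34, 810 to 1036 against 63.2 to 117 CPM), and so did all 7 of GABAergic neurons (median −4.16, 1331 to 1707 against 44.7 to 68.1 CPM). All 7 markers of deep-layer neurons rose (median 1.97), from 1848 to 2589 CPM to 7248 to 8387 CPM. Progenitor and GABAergic transcripts thus accompanied the higher *Id1*, *Id3*, *Id4*, *Tcf3*, *Tcf4* and *Tcf12* of TdTomato- cells, and deep-layer transcripts accompanied the higher *Id2* of TdTomato+ cells. *Hes5*, *Neurog2*, *Neurod2*, *Neurod6*, *Olig1* and *Olig2* are in both kinds of list. The part of cell composition in the changes of the members was not tested.

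*Id1* and *Id3* are also known from vascular cells, so markers of other cell types were summed as well. Of the endothelial markers 4 of 10 were in the table, 1 fell and 3 did not pass, and their sum was 3.25 to 5.85 CPM in TdTomato- libraries and 2.76 to 4.31 CPM in TdTomato+ libraries. *Cldn5*, *Cdh5*, *Tie1*, *Tek*, *Flt1* and *Emcn* were the 6 outside the table. Of the pericyte markers 4 of 6 were in the table and 3 fell, and the sum of the 4 was 11.6 to 18.8 CPM against 1.01 to 3.04 CPM. Of the microglial markers 6 of 7 were in the table and all 6 fell, from 18.7 to 77.1 CPM to 7.24 to 10.2 CPM, with *P2ry12*, *C1qa* and *C1qb* at or under the floor of 3 counts in every TdTomato+ library. All 5 erythroid markers in the table, of 7, fell as well, from 74.2 to 258 CPM to 1.18 to 25.6 CPM.

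Of the meningeal markers 2 of 6 were in the table, and their sum was 1.88 to 5.29 CPM against 0.564 to 1.09 CPM. *Col1a2*, a collagen gene, fell from 2.06±1.51 to 0.159±0.145 CPM, and *Dcn* (0.837±0.229 and 0.691±0.269 CPM) did not pass the test. Of the choroid plexus markers only *Otx2*, of 4, was in the table, and it fell from 9.79 to 15.3 CPM to 0.226 to 1.94 CPM. Of the oligodendrocyte lineage markers 4 of 5 were in the table and all 4 fell, from 43.0 to 64.3 CPM to 2.03 to 3.83 CPM. Of the markers in the table, 3 of 4 endothelial, 4 of 4 pericyte, 2 of 2 meningeal, 5 of 6 microglial, 4 of 5 erythroid, the choroid plexus and 3 of 4 oligodendrocyte markers were there only by way of TdTomato- libraries, so these counts are descriptions. The part of these cells in the changes of *Id1* and *Id3* was not tested.

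The genes most like each member across the 10 libraries were found among 9785 genes with a mean log2 CPM of at least 3, by the root mean square difference of log2 CPM after each gene was centred on its own mean. *Id2* was followed most closely by *Gpr85* (0.078), an orphan receptor gene of the brain, and then by *Csrp2* (0.110) and *Mturn* (0.111). For *Id4* the nearest were *Mcm5* (0.171), *Arhgap11a* (0.204) and *Smc4* (0.205). *Mcm5* is known for DNA replication and *Smc4* for chromosome condensation. For *Tcf3* they included *Tpm4* (0.062) and *Efs* (0.065), for *Tcf12* *Kpna2*, *Limd1* and *Acss1* (0.084 to 0.112), and for *Tcf4* *Tnfrsf19*, *Tmem250-ps* and *Dennd1a* (0.103 to 0.112). The scarce *Id1* and *Id3* had more distant neighbours, *Ltbp3*, *Fam167a* and *Sox2ot* for *Id1* (0.208 to 0.239) and *Abca1*, *Adgrv1* and *Notch2* for *Id3* (0.420 to 0.448). Both lie below that mean level themselves, so genes as scarce as *Id1* and *Id3* were not candidates. Nothing is read from their greater distances. Since each library contributes to both genes of a pair and the populations differ widely, these distances are descriptions.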

How the data were processed

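Polyadenylated RNA of sorted TdTomato+ and TdTomato- cells was sequenced in 10 libraries, 5 of each population. The authors aligned the reads with STAR 2.4.2a to GRCm38 and deposited raw counts of reads per gene, without normalization. The annotation release and the strand column are not given in the sources used here, and the sources disagree about kit, RNA input, instrument and read length. Every gene of the deposited count table had more than 0.5 CPM in at least 5 libraries.

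The test was the quasi-likelihood F-test of edgeR 4.0.16 (R 4.3.3), after filterByExpr and TMM scaling, with mouse as a block and a prior count of 0.125. P-values were adjusted by Benjamini-Hochberg over 14300 genes. A gene was called at an adjusted p of at most 0.05, and past both thresholds where its log2 change was also 2 or more in size. CPM used TMM-scaled library sizes and log2 CPM a prior count of 2. Symbols, positions and lengths were those of the GENCODE annotation of GRCm38, which matched 14271 genes. The study's methods describe paired comparisons. The correlation of deviations between libraries of the same mouse number was 0.186 to 0.316, against −0.312 to 0.212 between mice. Mouse 5, at 0.186, lay within the range between mice, and the other mice lay above it. The procedure was tested on simulated counts for this comparison over 14300 genes, in which 200 of 200 genes changed by 3 on the log2 scale were recovered past both thresholds, 0 of 14098 unchanged genes passed both, and 9 of these had an adjusted p of 0.05 or less. The simulation changed few genes, in random directions, and drew no difference between mice, whereas 77.3% of genes were called in the data. It therefore does not test the scaling or the mouse block under changes as wide as these. Total counts per library were 23429034 to 27286180, and the floor of 3 counts covers counting error only.

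The 7 members, the pathway lists and the marker lists were chosen with earlier results of these data known. The text names the members, the genes of those lists by counts and a few values, and the 3 genes most like each member. A gene of the lists and a gene among those most like a member are not reported here by name, and stay in the counts and sums. Coding stretches were translated and matched without gaps with Biopython 1.88. Alternatives were RLE and upper-quartile scaling, DESeq2 1.42.0, other count filters, no mouse block, TREAT, a prior count of 2, each mouse left out in turn, other gene lengths and sums without single members or without *Neurod2* and *Neurod6*.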

Additional observations from a re-analysis of the deposited data

Results flagged for a closer look

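Libraries far from the other 4 of their population were sought with Dixon's criterion (gap over range above 0.71 for 5 samples) in 58 sets of values, of which chance would give about 2.9. There were 2. For *Tcf12* in TdTomato+ cells, mouse 2 had a log2 CPM of 5.35 against 5.73 to 5.87 in the other 4 mice (gap over range 0.738). For the summed CPM of *Tcf3*, *Tcf4* and *Tcf12* in TdTomato- cells, mouse 4 had 10.44 on the log2 scale against 10.67 to 10.74 in the others (0.76). Without mouse 2 the log2 fold change of *Tcf12* was −2.43, and without mouse 4 that of *Tcf4* was −0.81.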

How the results depend on the processing

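Over all 91 alternative values of the 7 members, each kept its direction, and the same 4 members passed both thresholds. Among these, the values with no count filter equal those of the main fit, since the filter removed no gene. TREAT, which tests against a log2 change of 2 and leaves the fold changes as they are, gave *Id2*, *Tcf3* and *Tcf4* an adjusted p of 1. Their fitted changes are below 2 in size, so this does not bear on whether they differ between the populations. Ranges were −3.12 to −2.96 for *Id1*, 1.53 to 1.63 for *Id2*, −4.67 to −4.06 for *Id3*, −3.57 to −3.35 for *Id4*, −1.86 to −1.79 for *Tcf3*, −0.87 to −0.74 for *Tcf4* and −2.56 to −2.43 for *Tcf12*. With no replicate block, 1846 genes passed both thresholds, against 1850 with the pairing by mouse, and no call of a member changed. With TREAT, 273 genes were higher, against 457, and 4 members passed. For the log2 ratio of summed Id to summed E-protein level, counts not divided by length gave −2.52 in TdTomato-, −1.07 in TdTomato+ and a difference of 1.44. The longest transcript gave −1.31 and 0.68. Without *Id4* the ratio was −1.28 in TdTomato- and the difference 2.81, without *Tcf4* the values were −0.0051, 2.43 and 2.44, and without *Id2* −1.37, −3.31 and −1.93. By the longest transcript, 2 of 7 members kept their rank in TdTomato- and 3 in TdTomato+ cells. Leaving out each mouse in turn gave differences of 1.99 to 2.08 for the Id ratio. This difference kept its sign except without *Id2*, whereas the TdTomato+ ratio itself turned without division by length and without *Id2*. For the tissue-restricted bHLH factors over the E-proteins, leaving out *Neurod2* and *Neurod6* gave 1.00 in TdTomato-, 0.55 in TdTomato+ and −0.45 as difference, against 2.19, 4.57 and 2.37. The longest transcript and the omitted members change the sums by construction. *Id3* rests on 5 to 13 counts in TdTomato+ libraries, which limits the precision of its fold change.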
